A study of Mus musculus with 12 samples.

Results

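Interferon-stimulated genes were followed as a set of 41 named genes across kidney RNA-seq libraries of a mouse Pkd1 model. The members were taken by symbol from a list, all 41 were among the 24062 genes of the deposited count table, and all 41 passed the filter on low counts, with 6 to 8744 reads per library. The 12 libraries, each listed as a separate sample from an adult mouse, fell into 4 groups of 3. UNx CrePlus mice carried Cre and lost 1 kidney (unilateral nephrectomy, UNx), and UNx CreMinus mice had the same operation without Cre. Sham CrePlus and sham CreMinus mice were sham-operated with and without Cre. All 4 groups are of the Pkd1 model and were induced with tamoxifen, CreMinus mice included, were 6 to 8 weeks old, and gave kidney tissue 4 weeks after surgery. Tamoxifen-activated Cre is used in such mice to remove Pkd1, which encodes polycystin-1. Neither the promoter that drives Cre nor the deleted part of Pkd1 is given in the sources used here, and whole kidney was sampled, so the cells that lost Pkd1 were not separated. The title of sham CrePlus replicate 1 carries a group name where the other titles carry a number.

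Type I and type III interferons signal through their receptors to a complex that includes STAT2 and IRF9 and binds the interferon-stimulated response element, and type II interferon acts mainly through the gamma-activated sequence. The induced genes encode sensors of foreign RNA and DNA, effectors that block viral RNA and assembly, GTPases that attack pathogen vacuoles, and regulators that amplify or end the response. In the kidney, both leukocytes and tubular cells can express them. Totals of the count table ranged over 41699032 to 42785476 reads in 4 deep libraries, namely every UNx CrePlus library plus UNx CreMinus replicate 1, and over 18914300 to 22480895 reads in the other 8. By Xist and Y-linked genes, UNx CrePlus replicates 1 and 2, UNx CreMinus replicate 1, sham CrePlus replicate 3 and sham CreMinus replicate 3 were male, and the other 7 libraries were female. Depth and sex were therefore unevenly spread over the UNx groups. Pkd1, the targeted gene, was at 45.5, 39.6 and 45.1 CPM (counts scaled to library size) in UNx CrePlus, 49.4, 49.3 and 71.6 CPM in UNx CreMinus, 64.1, 46.1 and 45.9 CPM in sham CrePlus and 76.8, 60.3 and 57.8 CPM in sham CreMinus kidneys. With Cre its log2 fold change was -0.39 ± 0.18 (SE) in UNx kidneys (edgeR adjusted p = 0.482), which did not pass, and reads outside the deleted part do not measure the deletion.

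Promoters are shown for Ifit2, the only member called for Cre, for the members of next smallest p in its family and in the guanylate-binding protein family, and for Isg15 and Rsad2, 2 widely used markers of an interferon response. The bases run up to the first base of the annotated gene in RefSeq on GRCm38.p6, 5′ to 3′ in the direction of the gene, and capitals mark matches on either strand to the interferon response element core (GAAA, 2 bases of any kind, GAAA) or to the gamma-activated sequence (TTC, 3 bases of any kind, GAA). For Ifit2 the starts behind the 2 promoter entries, at 34550694 and 34551088, lie inside the annotated gene, which begins at 34550550, so only 106 bases of the first entry lie before the gene and are shown. They lie at chr19:34550444-34550549 on the plus strand, chr19:34640739-34640888 on the plus strand, chr3:142530186-142530335 on the plus strand, chr3:142620513-142620662 on the plus strand, chr4:156200819-156200968 on the minus strand and chr12:26456453-26456602 on the minus strand.
Ifit2: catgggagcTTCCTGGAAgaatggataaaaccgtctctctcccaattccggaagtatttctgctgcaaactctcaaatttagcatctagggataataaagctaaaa
Ifit1: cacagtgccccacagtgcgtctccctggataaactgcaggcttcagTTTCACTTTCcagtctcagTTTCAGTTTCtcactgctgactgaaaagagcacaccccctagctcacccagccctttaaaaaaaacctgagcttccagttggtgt
Gbp7: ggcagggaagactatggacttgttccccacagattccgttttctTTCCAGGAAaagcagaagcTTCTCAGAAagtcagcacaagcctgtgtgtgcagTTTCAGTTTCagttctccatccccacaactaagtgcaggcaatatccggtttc
Gbp2: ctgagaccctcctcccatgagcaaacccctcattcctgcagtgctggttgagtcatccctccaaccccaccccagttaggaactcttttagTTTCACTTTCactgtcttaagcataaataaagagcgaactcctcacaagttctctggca
Isg15: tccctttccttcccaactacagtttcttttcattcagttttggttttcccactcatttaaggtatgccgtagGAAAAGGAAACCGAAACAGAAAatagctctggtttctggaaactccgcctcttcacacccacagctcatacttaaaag
Rsad2: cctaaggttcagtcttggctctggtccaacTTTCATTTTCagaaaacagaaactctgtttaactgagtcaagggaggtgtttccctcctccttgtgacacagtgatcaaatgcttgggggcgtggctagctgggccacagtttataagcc

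Of the 41 members, 31 had an entry among the RefSeq promoters. Within 250 bases before the start of a promoter entry, 14 of the 31 (45.2%) held the response element core, against 3.46% of 27025 genes, and 6 (19.4%) held the gamma-activated sequence, against 8.13%. Both motifs stood before 4 members, the response element core alone before 10, the gamma-activated sequence alone before 2 and neither before 15. Isg15 had 3 overlapping matches to the core from 78 to 57 bases before its start, and Ifit1 had 2. The promoter entry of Ifit3 starts 410 bases inside the annotated gene, so its matches to the core lie inside the gene. That of Oas1a starts 19 bases inside, and its core matches, 20 to 5 bases before that start, lie almost wholly inside the gene. Gbp7 carried both motifs, with the core at 53 to 44 bases and gamma-activated sequences at 106 to 98 and 87 to 79 bases before the start. Ifit2 held no match to the core in these windows, and its gamma-activated sequence lay 241 to 233 bases before the start of its first promoter entry, which is 97 to 89 bases before the first base of the annotated gene. In Bst2 the gamma-activated sequence overlapped the core. A match is a run of letters and was not tested for binding.

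**Figure D1:**
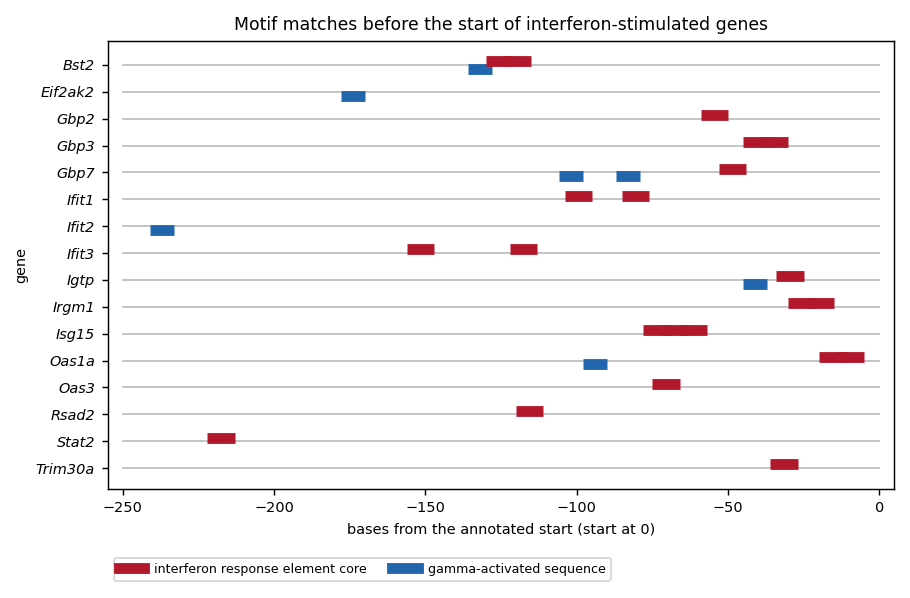
Matches to the interferon response element core (red) and the gamma-activated sequence (blue) in the 250 bases before the start of a RefSeq promoter entry of the 16 members with a match. The horizontal axis gives bases from that start, at 0. For Ifit2 it lies 144 bases and for Ifit3 410 bases inside the annotated gene, so both matches of Ifit3 lie inside the gene. The starts behind the matches of Gbp3, Oas3 and Oas1a lie 28, 25 and 19 bases inside. Most core matches lie within 130 bases of the start, and those of Stat2 and the farther one of Ifit3 lie beyond.

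The first comparison set CrePlus against CreMinus kidneys after UNx, when the remaining kidney grows. Ifit2, whose product binds RNA and restrains translation, rose with Cre, and it was the only member called. Ifit2 was at 27.5, 22.0 and 23.6 CPM in UNx CrePlus kidneys and at 12.7, 14.4 and 11.8 CPM in UNx CreMinus kidneys. Every UNx CrePlus library lay above every UNx CreMinus library. Its log2 fold change was 0.91 ± 0.13 (SE), with a Benjamini-Hochberg adjusted p of 0.0333 over 14970 genes in edgeR's quasi-likelihood test. That is 1 of 41 members called, against 0.14% of all genes. The call was not stable: it was kept in 5 of 12 fits that each left out 1 library, with an adjusted p up to 0.182 and a log2 fold change of 0.81 to 0.99, and was lost without any of the 3 UNx CreMinus libraries, UNx CrePlus replicate 1 or 2, sham CreMinus replicate 1 or sham CrePlus replicate 2. A fit restricted to the UNx libraries also lost it, as did one with a depth term (log2 fold change 0.946, edgeR adjusted p = 0.535) and one with terms for sex and depth (0.912, edgeR adjusted p = 0.237). DESeq2 also called Ifit2 and no other member, against 1.21% of all genes.

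The members as a whole lay higher in UNx CrePlus kidneys, although few stood out singly. The log2 fold change was above 0 for 39 of 41 members, against 47.8% of all genes, and its median was 0.41, against -0.01 over all genes. At an unadjusted p under 0.05, 15 members were higher and 0 lower, against 6.15% of all genes that were higher. That number was 7 in the fit that left out UNx CrePlus replicate 1, 7 in the one that left out UNx CreMinus replicate 2 and 9 in the one that left out UNx CrePlus replicate 2. It was 4 with a depth term and 5 with terms for sex and depth. The UNx CrePlus libraries lay above all UNx CreMinus libraries for 21 members, against 8.33% of all genes, and below them for 0, against 7.47%. These counts describe the list, whose members share libraries and often move together, and are not a test of it. Gbp3 (-0.74) and Parp12 (-0.02) were the members below 0. The plot of fold changes shows both Cre comparisons side by side.

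**Figure D2:**
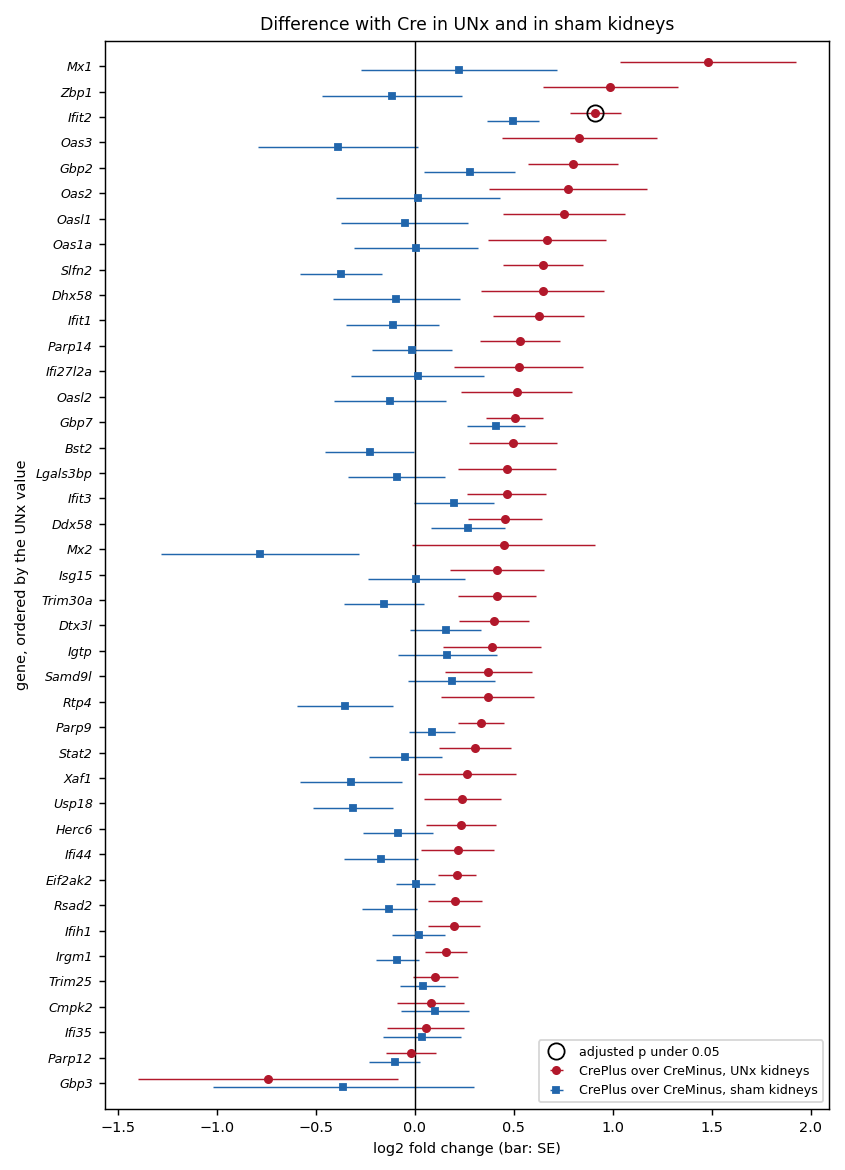
Log2 fold change of CrePlus over CreMinus for each of the 41 members in UNx kidneys (red circles) and in sham kidneys (blue squares), with SE bars and a ring where the adjusted p is under 0.05, ordered by the UNx value. In UNx kidneys 39 members lie above 0 and Ifit2 alone is ringed; in sham kidneys 19 lie above 0.

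Within the IFIT family, all 3 members had UNx CrePlus libraries above all UNx CreMinus libraries, against 8.33% of all genes. Ifit1, which binds RNA that lacks the host's cap methylation, was at 10.5, 7.73 and 6.87 CPM in UNx CrePlus and at 5.32, 6.35 and 4.56 CPM in UNx CreMinus kidneys. Its log2 fold change of 0.63 ± 0.23 did not pass (edgeR adjusted p = 0.4). The annotated span of Ifit1, introns included, overlaps that of the gene Ifit1bl1 over 9121 bases. Overlap of their exons was not measured. Without strand, reads on any exon shared by overlapping genes could not be separated. The IFIT genes lie side by side on chromosome 19, from 34550550 to 34650009.

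Among the interferon-induced GTPases, Gbp2 and Gbp7, which encode guanylate-binding proteins, lay higher without passing. Gbp2 was at 22.2, 18.0 and 17.8 CPM in UNx CrePlus and at 13.1, 10.7 and 9.37 CPM in UNx CreMinus kidneys (log2 fold change 0.80 ± 0.23, edgeR adjusted p = 0.31). Gbp7 was at 23.5, 26.1 and 22.0 CPM in UNx CrePlus and at 16.8, 16.7 and 16.9 CPM in UNx CreMinus kidneys (0.50 ± 0.14, edgeR adjusted p = 0.31). Neither gene's groups overlapped, and the UNx CreMinus values of Gbp7 were nearly equal. Irgm1, an immunity-related GTPase and the most abundant of the group by CPM, was at 69.9, 63.2 and 64.5 CPM in UNx CrePlus and at 61.7, 60.3 and 55.0 CPM in UNx CreMinus kidneys. Gbp2, Gbp3 and Gbp7 lie together on chromosome 3, from 142530336 to 142638008.

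Nucleic acid sensors also lay higher, with 5 of 5 above 0 and a median log2 fold change of 0.46. Zbp1, a sensor of left-handed nucleic acid that can start necroptosis, was at 3.62, 4.21 and 2.33 CPM in UNx CrePlus and at 2.03, 1.43 and 1.62 CPM in UNx CreMinus kidneys (0.99 ± 0.34, edgeR adjusted p = 0.378). Ddx58, which encodes the RNA sensor RIG-I, was at 46.9, 39.1 and 49.7 CPM in UNx CrePlus and at 28.6, 34.0 and 36.4 CPM in UNx CreMinus kidneys (0.46 ± 0.19, edgeR adjusted p = 0.437). Both had groups that did not overlap. With a term for sex, Ddx58 was called in UNx kidneys (log2 fold change 0.59, edgeR adjusted p = 0.0455), in a fit that called 0.748% of all genes. The other 3 sensors, Ifih1, Dhx58 and Eif2ak2, did not pass.

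The ADP-ribosyl transferase genes and their partner Dtx3l had a median of 0.37. Parp14 was at 35.2, 32.9 and 29.8 CPM in UNx CrePlus and at 22.3, 20.7 and 24.6 CPM in UNx CreMinus kidneys (0.53 ± 0.20, edgeR adjusted p = 0.415). Parp9 was at 25.8, 31.1 and 25.0 CPM in UNx CrePlus and at 23.5, 21.1 and 20.2 CPM in UNx CreMinus kidneys (0.34 ± 0.12, edgeR adjusted p = 0.378). The groups did not overlap for either gene, by a narrow margin for Parp9. Parp9 and Dtx3l, which form a complex, overlap over 558 bases on chromosome 16.

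The OAS family, whose active enzymes make the messenger that activates RNase L, had 5 of 5 members above 0 with a median of 0.75 and 0 called. Oasl2, the most abundant by CPM, was at 17.4, 15.5 and 9.82 CPM in UNx CrePlus and at 8.54, 10.0 and 11.4 CPM in UNx CreMinus kidneys. The third UNx CrePlus library lay inside the UNx CreMinus range. Oas2 and Oas3 showed the same layout in the heat map, with UNx CrePlus replicate 3 low. In 1 of 5 members of the family, Oas1a, the UNx CrePlus libraries lay above all UNx CreMinus libraries, against 8.33% of all genes.

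Among Mx genes and other antiviral effectors, Mx1, a GTPase that blocks influenza virus in mice, had the largest log2 fold change of all members, 1.48 ± 0.45 (edgeR adjusted p = 0.329). Mx1 was low throughout, at 1.92, 1.26 and 0.687 CPM in UNx CrePlus and at 0.463, 0.552 and 0.355 CPM in UNx CreMinus kidneys. Mx2 was at 3.06, 1.94 and 0.801 CPM in UNx CrePlus and at 0.952, 1.38 and 1.98 CPM in UNx CreMinus kidneys, which overlapped. Bst2, the tetherin that holds virus at the cell surface, was at 24.9, 28.0 and 20.2 CPM in UNx CrePlus and at 14.4, 17.4 and 20.2 CPM in UNx CreMinus kidneys. Samd9l, the most abundant of this group by CPM, was at 203, 160 and 179 CPM in UNx CrePlus and at 186, 112 and 120 CPM in UNx CreMinus kidneys, and its direction turned with a depth term. Mx2, Bst2 and Samd9l each overlapped between the groups and did not pass.

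The ubiquitin-like system, in which ISG15 is attached to proteins and removed by USP18, had 5 of 5 members above 0, a median of 0.24 and 0 members at an unadjusted p under 0.05. Trim25, a ligase that activates RIG-I and the most abundant member of this group by CPM, was at 120, 126 and 114 CPM in UNx CrePlus and at 129, 104 and 102 CPM in UNx CreMinus kidneys. These groups overlapped, and the direction of Trim25 turned with a depth term. Stat2, whose product is part of the complex that binds the response element, was at 32.6, 25.8 and 26.4 CPM in UNx CrePlus and at 20.1, 20.1 and 28.6 CPM in UNx CreMinus kidneys, with overlap. Of the other induced genes, Slfn2, a regulator of T cell and monocyte quiescence, was at 9.69, 11 and 6.91 CPM in UNx CrePlus and at 5.89, 5.70 and 6.03 CPM in UNx CreMinus kidneys (0.65 ± 0.20, edgeR adjusted p = 0.347). Lgals3bp, a secreted galectin ligand, was at 127, 105 and 101 CPM in UNx CrePlus and at 67.3, 92.7 and 81.7 CPM in UNx CreMinus kidneys. Slfn2 and Lgals3bp had groups that did not overlap.

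**Figure D3:**
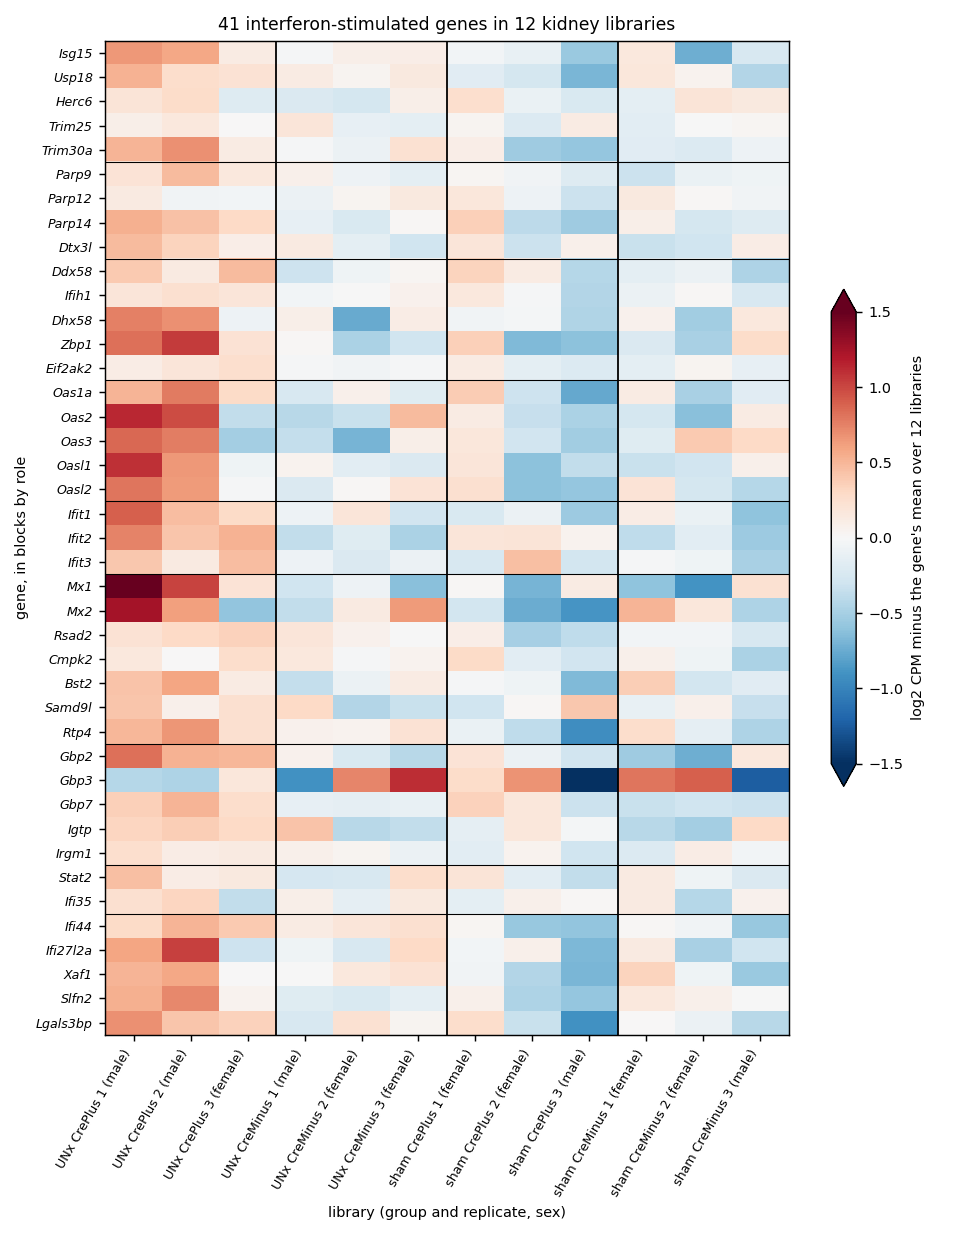
Log2 CPM of each of the 41 members in each of the 12 libraries, minus the gene's mean over the libraries, in blocks by role, with columns by group and replicate and the sex read from Xist and Y-linked genes. UNx CrePlus replicates 1 and 2 hold the highest value of 18 and 14 members, sham CrePlus replicate 3 holds the lowest of 18, and the Gbp3 row follows sex.

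In sham kidneys the members showed no common direction with Cre. None was called, against 0.0267% of all genes, and DESeq2 also called 0, against 0.299%. At an unadjusted p under 0.05, 2 members were higher, against 2.65% of all genes. The median log2 fold change was -0.05, against 0.0014 over all genes, with 19 of 41 above 0, against 50.4% of all genes. That count was 12 without sham CrePlus replicate 1 and 28 without sham CrePlus replicate 3. In the first of these fits 7 members had an unadjusted p under 0.05, and 1 of them was higher. In the second there were 3, all higher. Ifit2 was at 18.6, 18.7 and 17 CPM in sham CrePlus and at 12.5, 14.8 and 11.3 CPM in sham CreMinus kidneys (0.50 ± 0.13, edgeR adjusted p = 0.695). It was the only member whose sham groups did not overlap, against 4.66% of all genes that were higher without overlap. Gbp7 was at 23.3, 20.7 and 14.6 CPM in sham CrePlus and at 14.5, 14.9 and 14.7 CPM in sham CreMinus kidneys (0.41 ± 0.15, edgeR adjusted p = 1.0). Slfn2 (-0.37) and Mx2 (-0.78) were lower without passing. Without sham CrePlus replicate 1, whose title differs, 0 members were called in sham kidneys, and Ifit2 kept its call in UNx kidneys (edgeR adjusted p = 0.0455). The sham and UNx comparisons of Cre share no libraries.

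Averaged over surgery, Ifit2 rose with Cre by a log2 fold change of 0.70 ± 0.09 (edgeR adjusted p = 0.0087), and it was the only member called, against 0.521% of all genes. All 6 CrePlus libraries lay at 17 CPM or above and all 6 CreMinus libraries at 14.8 CPM or below, a separation found upwards in 0.882% of all genes. This call was kept in 12 of 12 fits that each left out 1 library, with an adjusted p of 0.012 to 0.041. With a depth term the log2 fold change was 0.721 and the call was lost (edgeR adjusted p = 0.0817), and with terms for sex and depth it was 0.705 and called (edgeR adjusted p = 0.045). Gbp7 came next (0.46 ± 0.10, edgeR adjusted p = 0.0926). It was called with a sex term (edgeR adjusted p = 0.0386), in a fit that called 1.97% of all genes, by DESeq2 (adjusted p = 0.00449), which called 2.42%, and without sham CrePlus replicate 3 (edgeR adjusted p = 0.0121). The interaction asks whether Cre went with a different change after UNx than after sham. It called 0 members, against 0% of all genes, and DESeq2 called 0, against 0%. At an unadjusted p under 0.05 it had 5 members, all positive, against 1.14% of all genes. That number was not stable: it was 1 without sham CrePlus replicate 3 or UNx CrePlus replicate 1, 14 without sham CrePlus replicate 1 and 13 without UNx CrePlus replicate 3. It was 2 without replicate 1 of either CreMinus group and without UNx CrePlus replicate 2, 3 without replicate 2 of either CreMinus group, 8 without sham CreMinus replicate 3, 2 with a depth term and 3 with terms for sex and depth. The median interaction was 0.42, with the smallest p for Slfn2 (1.02 ± 0.29, edgeR adjusted p = 1.0). A difference of the Cre effect between UNx and sham kidneys was thus not shown for any member.

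**Figure D4:**
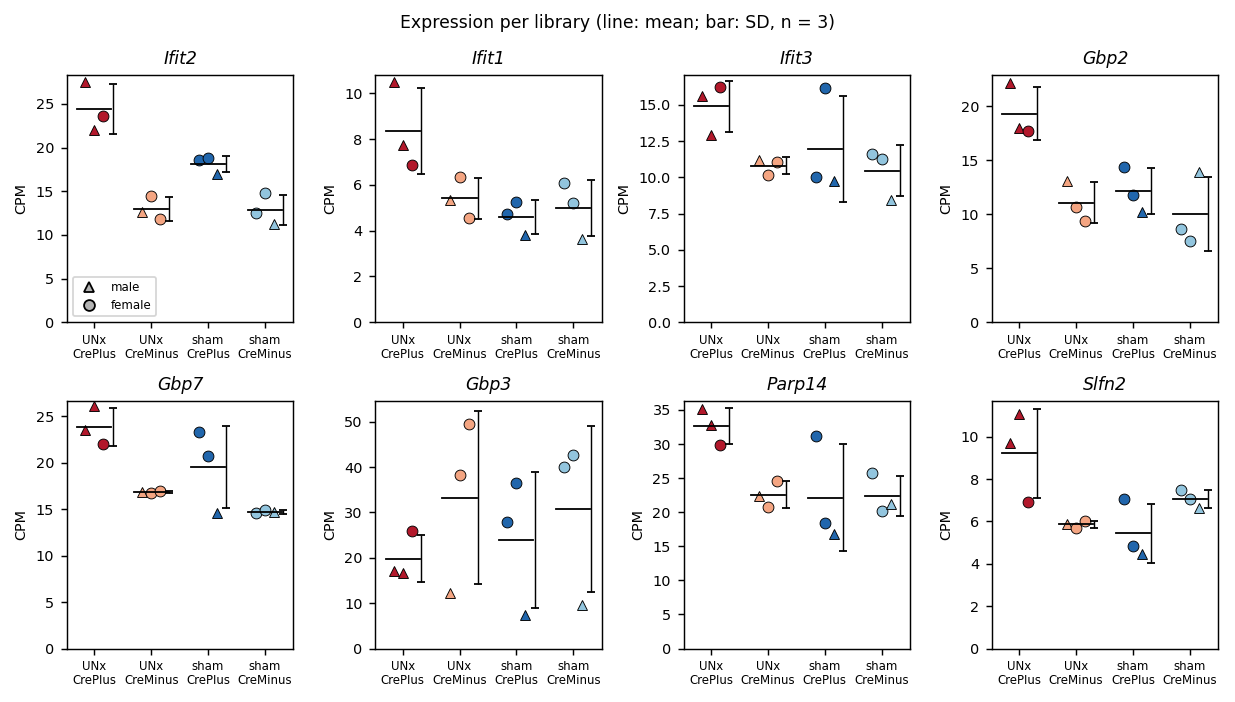
CPM of 8 members in each library of the 4 groups, with the mean (line), the SD (bar, n = 3) and the sex of the library (triangle male, circle female). Ifit2 separates CrePlus from CreMinus in UNx and in sham kidneys, Gbp2, Gbp7, Parp14 and Slfn2 are highest in UNx CrePlus kidneys on average, and Gbp3 is lowest in the male libraries.

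UNx was set against sham within CrePlus kidneys and within CreMinus kidneys to find what differs with nephrectomy. These comparisons share libraries with those of Cre. Library numbers followed surgery, at 1749 to 1754 for UNx and at 1744 to 1748 and 1755 for sham libraries. The deep libraries were 1751 to 1754. What the numbers stand for is not given, so UNx and anything that follows them cannot be told apart fully. In CrePlus kidneys 40 of 41 members lay higher after UNx, against 46.3% of all genes, with a median log2 fold change of 0.62, against -0.01 over all genes. None was called, against 0% of all genes, and DESeq2 called 0, against 0.0456%. At an unadjusted p under 0.05, 24 members were higher, against 4.15% of all genes, and 17 had UNx libraries above all sham libraries, against 4.73%. The number at an unadjusted p under 0.05 was 13 once sham CrePlus replicate 3 was left out, 14 in the fit that lacked UNx CrePlus replicate 1, 5 with a depth term and 6 with terms for sex and depth. The lowest adjusted p was 0.692 with edgeR. Ifi44, an antiviral protein of the cytoplasm, was at 22.0, 25.8 and 23.7 CPM in UNx CrePlus and at 18.4, 12.1 and 12 CPM in sham CrePlus kidneys (0.75 ± 0.19). Rtp4 was at 7.46, 8.39 and 6.23 CPM in UNx CrePlus and at 4.92, 4.02 and 2.72 CPM in sham CrePlus kidneys (0.92 ± 0.24). Rtp4 overlaps Masp1 over 1022 bases. Trim30a was at 13.2, 14.9 and 10.1 CPM in UNx CrePlus and at 9.88, 6.36 and 6.18 CPM in sham CrePlus kidneys (0.77 ± 0.20). Rsad2, which encodes viperin, was at 39.8, 42.2 and 43.5 CPM in UNx CrePlus and at 36.8, 24.2 and 26.4 CPM in sham CrePlus kidneys (0.52 ± 0.14). In all 4 genes the groups were separate, and sham CrePlus replicate 1 was the highest sham CrePlus library.

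In CreMinus kidneys UNx went with little difference. The median was 0.10, 32 of 41 members lay above 0, against 51.4% of all genes, and 0 were called by edgeR or DESeq2, against 0% of all genes in edgeR and 0.0101% in DESeq2. None had an unadjusted p under 0.05, against 1.3% of all genes. Ifi44, Rsad2 and Gbp7 were higher without overlap, against 2.67% of all genes, and Slfn2 was lower without overlap, against 2.19%. Ifi44 was at 19.7, 20.5 and 21.4 CPM in UNx CreMinus and at 18.3, 17.4 and 12.2 CPM in sham CreMinus kidneys (0.36 ± 0.19, edgeR adjusted p = 1.0). Averaged over Cre, 0 members were called for UNx with edgeR, against 0% of all genes, with 15 higher at an unadjusted p under 0.05, against 3.25%. Those were 9 without UNx CrePlus replicate 1, 2 with a depth term and 3 with terms for sex and depth. DESeq2 called 1, Ifi44 (0.56, adjusted p = 0.0496), against 0.113% of all genes. Ifi44 in edgeR had 0.56 ± 0.13 and an adjusted p of 0.875.

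The shift in UNx CrePlus kidneys was uneven over its 3 libraries. Averaged over the 41 members, centred log2 CPM came to 0.52, 0.45 and 0.12 for UNx CrePlus replicates 1 to 3, against -0.08, -0.10 and 0.02 for the UNx CreMinus kidneys. It was 0.08, -0.19 and -0.43 in sham CrePlus and -0.03, -0.16 and -0.19 in sham CreMinus kidneys. UNx CrePlus replicates 1 and 2 were high and male, replicate 3 was female and nearer to the other groups, and the male sham CrePlus replicate 3 was lowest. Among all genes, the highest value lay in UNx CrePlus replicate 1 for 7.99% and in replicate 2 for 9.63%, and the lowest in sham CrePlus replicate 3 for 12.8%. Within sex, the members' median difference with Cre in UNx kidneys was 0.55 in males (2 against 1 library, 37 of 41 higher) and 0.18 in females (1 against 2 libraries, 31 of 41 higher). In sham kidneys it was -0.26 in males (1 against 1 library, 7 of 41 higher) and 0.05 in females (2 against 2 libraries, 24 of 41 higher). For UNx in CrePlus kidneys it was 1.01 in males (2 against 1 library) and 0.20 in females (1 against 2 libraries). Among the 4 deep libraries the difference with Cre in UNx kidneys was 0.46 (3 against 1 library). Ifit2 differed by 0.96 in males, 0.85 in females and 0.94 in deep libraries in UNx kidneys, and by 0.59 in males and 0.46 in females in sham kidneys.

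Markers of several cell types differed between the UNx groups alongside the members, and none of them was called. The 13 macrophage and monocyte markers in the table summed to 301, 331 and 171 CPM in UNx CrePlus replicates 1, 2 and 3 and to 147, 167 and 159 CPM in UNx CreMinus kidneys. In sham kidneys the sum was 252, 143 and 184 CPM in CrePlus and 154, 131 and 341 CPM in CreMinus libraries. For Cre in UNx kidneys, 11 of the 13 had a log2 fold change above 0, against 47.8% of all genes, with a median of 1.17. At an unadjusted p under 0.05, 7 of them were higher, against 6.15% of all genes. For 9 of them every UNx CrePlus library lay above every UNx CreMinus library, against 8.33% of all genes. With Lyz2 included, the sums of the UNx groups did not overlap, by a narrow margin. The 9 T and NK cell markers summed to 5.84 to 11.1 CPM in UNx CrePlus and 3.96 to 7.5 CPM in UNx CreMinus kidneys, and the pan-leukocyte gene Ptprc was at 16.8, 23.1 and 12.2 CPM against 10.6, 8.09 and 10.5 CPM in the same groups. The T and NK cell sums overlapped between these groups, and the values of Ptprc did not. Of the 7 T and NK cell markers tested, 6 lay above 0, with a median of 1.16. At an unadjusted p under 0.05, 4 of the 7 were higher, against 6.15% of all genes. For 5 of the 7 the UNx CrePlus libraries lay above all UNx CreMinus libraries, against 8.33% of all genes. The 6 plasmacytoid dendritic cell markers, which include the member Bst2, summed to 85.3 to 94.0 CPM in UNx CrePlus and 63.4 to 74.4 CPM in UNx CreMinus kidneys, without overlap. B cell and neutrophil markers were low, with summed levels of at most 6.59 CPM in any library. Among kidney cells, 0 of 6 loop of Henle and distal tubule markers lay above 0, and 1 of 6 was lower without overlap, against 7.47% of all genes. Their sum was 7106 to 10654 CPM in UNx CrePlus and 11412 to 12078 CPM in UNx CreMinus kidneys, without overlap. Podocyte markers had 0 of 5 above 0 (median -0.40) and sums that overlapped, at 381 to 707 CPM in UNx CrePlus and 531 to 768 CPM in UNx CreMinus kidneys. Fibroblast and matrix markers had 7 of 7 above 0 (median 0.67), with sums of 294 to 736 CPM in UNx CrePlus and 214 to 391 CPM in UNx CreMinus kidneys, which overlapped. Above 0 were also 7 of 8 tubular injury, 5 of 7 endothelial, 4 of 8 proximal tubule and 1 of 5 collecting duct markers, all with overlapping sums. No marker of any list was at 0 in every library, and the part of these cells in the result was not tested. In whole tissue, fewer cells of a type and less RNA per cell cannot be told apart. Sham CreMinus replicate 3 had the highest macrophage sum of all libraries and a member mean of -0.19, but 116 CPM of its sum came from Lyz2, the lysozyme gene, which was at 6.76 to 51.9 CPM in the other libraries. Without Lyz2, a sum added after the values were seen, it was at 225 CPM, below 253 and 280 CPM in UNx CrePlus replicates 1 and 2. The same sum was 149 CPM in UNx CrePlus replicate 3 and 152 CPM in UNx CreMinus replicate 2, so without Lyz2 the UNx groups overlapped. UNx CrePlus replicate 3, with a macrophage sum of 171 CPM, or 149 CPM without Lyz2, had Ifit2 at 23.6 CPM.

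**Figure D5:**
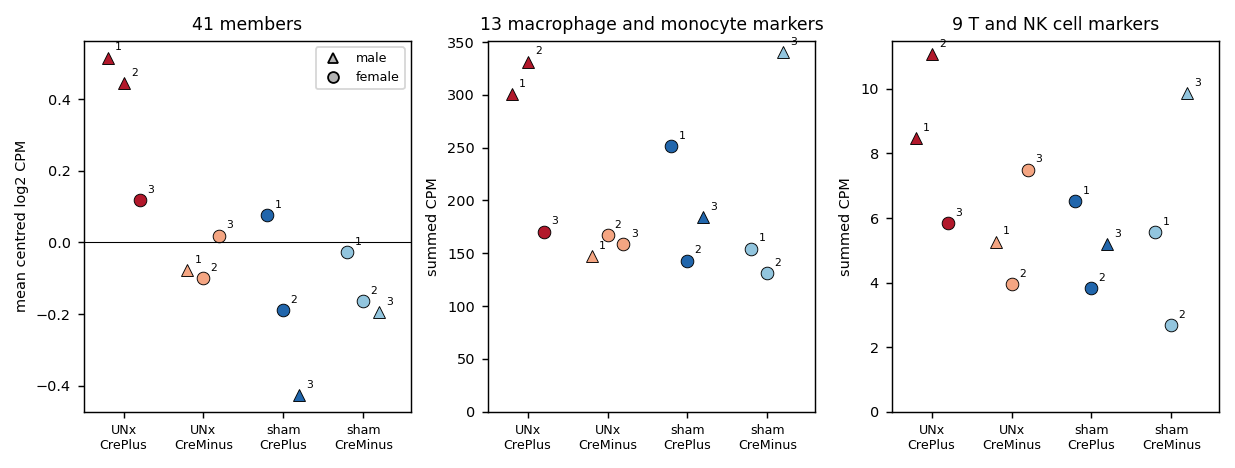
Mean centred log2 CPM of the 41 members (left), summed CPM of 13 macrophage and monocyte markers (middle) and of 9 T and NK cell markers (right) in each library, by group and replicate number, with triangles for male and circles for female libraries. UNx CrePlus replicates 1 and 2 are high in all 3 panels; sham CreMinus replicate 3 is at 341 CPM for macrophage markers, of which 116 CPM is Lyz2, and at -0.19 for the members.

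Gbp3 differed between the sexes. It was at 7.46 to 17 CPM in the 5 male libraries and at 25.9 to 49.4 CPM in the 7 female libraries, without overlap. In a model with group means and a sex term, a comparison chosen after the values were seen, its log2 fold change of male over female was -1.66 ± 0.22 (edgeR adjusted p = 0.000495). That model called 3 members for sex, Gbp3, Ddx58 (-0.38) and Dtx3l (0.31), against 20.4% of all genes. In UNx kidneys Gbp3 was at 17, 16.6 and 25.9 CPM with Cre and at 12.2, 38.3 and 49.4 CPM without Cre, and male libraries were 2 of the 3 with Cre and 1 of the 3 without. Within sex it differed by 0.46 in males and -0.74 in females.

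Of the genes upstream, the interferons themselves were barely read. All 16 ligand genes were in the table and 0 passed the filter on low counts. The 11 genes without a read, Ifnb1 among them, had 0 of 338463025 reads over all libraries, which allows up to 0.00886 CPM by a floor of 3 counts. The largest count was 5 reads in a library, for Ifng, the type II interferon, with 17 reads in 8 libraries. The floor covers counting error only.

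Receptors, signalling genes and sensing adaptors were expressed, and none of them was called for Cre in UNx kidneys. All 6 receptor genes lay above 0, with Ifngr2 at 0.42 ± 0.10 (edgeR adjusted p = 0.195) and Ifnar1 at 0.20 ± 0.07 (edgeR adjusted p = 0.379). Of 14 signalling genes 12 lay above 0, with Socs3, a feedback inhibitor, at 1.77 ± 0.48 (edgeR adjusted p = 0.283). Of 16 sensing genes 15 lay above 0, with Tmem173, which encodes STING, at 1.34 ± 0.31 (edgeR adjusted p = 0.195) and Mb21d1, which encodes cGAS, at 1.01 ± 0.38 (edgeR adjusted p = 0.414). Of 44 tested interferon-induced genes outside the 41 members, 40 lay above 0 with a median of 0.43. Among them Nlrc5, a regulator of MHC class I genes, had 1.01 ± 0.24 (edgeR adjusted p = 0.195) and the chemokine gene Cxcl10 1.45 ± 0.36 (edgeR adjusted p = 0.23). Of all genes, 47.8% lay above 0. At an unadjusted p under 0.05 there were 2 of 6, 4 of 14, 3 of 16 and 16 of 44 genes in the receptor, signalling, sensing and other lists, all higher. Among all genes, 6.15% were higher at that p. Irf5, the gene of the series title, had 0.43 ± 0.28 (edgeR adjusted p = 0.631).

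Per kilobase of exon, the members covered a wide range of levels. The highest means over all libraries were those of Lgals3bp (28.9 CPM per kb), Samd9l (28.6), Bst2 (21.1) and Trim25 (19.7), and the lowest that of Oas3 (0.187 CPM per kb). The median was 4.11 CPM per kb over 40 members with a length. Ifit2 stood near it, at 6.21 CPM per kb in UNx CrePlus and 3.30 in UNx CreMinus kidneys. Of the 41 members 18 lay in 7 clusters of neighbours, such as the OAS genes on chromosome 5 and Mx1 and Mx2 on chromosome 16. Reads of such near copies may have been split by the authors' counting. Another annotated gene overlapped 17 members.

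In the authors' deposited table for Cre in UNx kidneys, 4 members had an adjusted p under 0.05, against 1.84% of all genes with an adjusted p there. By the authors' deposited table these were Ifit2 (1.19e-05), Gbp2 (0.00536), Parp14 (0.00776) and Gbp7 (0.0113). The authors' deposited tables for UNx against sham over all libraries, for UNx against sham in CrePlus kidneys and for Cre in sham kidneys each had 0 members under 0.05, against 0.0337%, 0.119% and 0.216% of all genes in the same order.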

How the data were processed

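RNA-seq counts were analysed for 12 kidney libraries. Per the labels' protocols, DNase-treated total RNA went into the SMART-Seq v4 kit, whose libraries keep no strand. The authors deposited whole-number counts per gene. Tools named in the submitters' processing notes are FastQC 0.11.5, cutadapt 1.11, HTSeq and DESeq2, for builds mm10 and GRCm38. Which aligner, annotation and strand option were used is not given in the sources used here. The deposited tables also hold the authors' log2 fold changes and p-values, of which adjusted p-values are quoted. Of the 6 tables, 4 were used. The other 2 are second versions, in which the sham comparison lacks the library sham CrePlus replicate 1. Their 17 library columns were not used and held identical counts. Repeated symbols (5) were kept once.

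Counts were tested in R 4.3.3 with edgeR 4.0.16: filterByExpr (14970 genes kept), TMM factors of 0.925 to 1.05, 4 group means over 12 libraries with 8 residual degrees of freedom, and the quasi-likelihood test, with Benjamini-Hochberg adjusted p under 0.05 called. SE is the size of the log2 fold change over the square root of F. CPM used TMM-scaled library sizes, and log2 CPM a prior count of 2. The script was tested on simulated data. Alternatives were DESeq2 1.42.0, RLE scaling, no low-count filter, only the groups compared, terms for sex and depth, and each library left out. Sex and within-sex values used sex read from Xist and Y-linked genes. Promoters and gene positions came from RefSeq (GRCm38.p6) and exon lengths from GENCODE M21. Replicate numbers follow accession order, as the labels hold none. The labels list separate samples of mice but do not tie each library to its own mouse, so p-values measure only the spread between them, which may be technical.

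The 41 members, the gene lists, the motifs and the printed promoters were chosen with earlier results of these data known. Named in full were members called in any comparison, the 10 of smallest p for Cre in UNx kidneys, the 4 of smallest p in each other comparison and the most abundant by CPM of each role group.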

Additional observations from a re-analysis of the deposited data

How the results depend on the processing

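The number of members called for Cre in UNx kidneys was 1 as reported (of 21 genes called), with DESeq2 (188 genes), with RLE scaling (13 genes) and with no low-count filter (18 genes). It was 2 with a sex term (Ifit2 and Ddx58, of 112 genes), and 0 with only the groups compared (9 genes), with a depth term (4 genes) and with terms for sex and depth (8 genes). It was 0 to 1 when each library was left out. For Cre averaged over surgery it was 1 as reported (of 78 genes), 2 with DESeq2 (385 genes), 3 with a sex term (Ifit2, Gbp7 and Ddx58, of 295 genes), 0 with a depth term (11 genes), 1 with terms for sex and depth (78 genes) and 1 to 2 when each library was left out. For UNx averaged over Cre it was 0 as reported (of 0 genes) and 1 with DESeq2 (of 15 genes). For Cre in UNx kidneys, the log2 fold change of Samd9l turned to -0.0437 with a depth term and to -0.0125 with terms for sex and depth, and that of Trim25 to -0.102 and -0.0566 with the same terms. Depth and the UNx CrePlus group cannot be told apart fully, since all 3 of its libraries were deep; the cause was not tested. The median log2 fold change of the members for Cre in UNx kidneys was 0.402 to 0.486 under 7 alternatives and 0.349 to 0.494 when each library was left out. For Cre in sham kidneys it was -0.194 to 0.0529 when each library was left out, so its sign was not settled. No paired analysis was possible because the labels give no replicate numbers. The ligand genes, at no more than 5 reads in a library, were not tested.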
